A study of Mus musculus with 9 samples.

Results

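The 9 genes described here belong to the signalling chain that links dopamine receptors to cyclic AMP and small GTPases in the striatum, and were followed across brain RNA of 3 mouse genotypes: Gnal, Gng7, Rgs9, Adcy5, Pde10a, Pde1b, Ppp1r1b, Rasd2 and Rasgrp2. They were taken by gene symbol from the 54446 genes counted in each library, of which 17355 passed the filter on low counts and were tested. All 9 genes passed that filter. The libraries came from brain tissue of adult male mice aged 3 to 4 months, labelled Tfap2a+/- (3 libraries), Tfap2b+/- (3 libraries) or wild type (3 libraries, labelled B6N). Tfap2a and Tfap2b encode the transcription factors AP-2 alpha and AP-2 beta, and each heterozygote is labelled as carrying 1 knockout copy. Which brain region was dissected, how either allele was built and how many animals stand behind a library are not given in the sources at hand. The p-values therefore reflect the spread of these samples alone, and that spread may be technical.

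In the striatum, medium spiny neurons receive dopamine through Drd1, which raises cyclic AMP, and Drd2, which lowers it. The stimulatory G protein of these neurons is built from the olfactory-type alpha subunit Gnal and the gamma subunit Gng7, and it activates the adenylyl cyclase Adcy5. Rgs9 speeds GTP hydrolysis on inhibitory G protein alpha subunits, the phosphodiesterases Pde10a and Pde1b break down cyclic nucleotides, and protein kinase A phosphorylates Ppp1r1b (DARPP-32), which then inhibits protein phosphatase 1. Rasd2 (Rhes) is a small GTPase enriched in the striatum, and Rasgrp2 (CalDAG-GEFI) is an exchange factor for Rap1. These genes are known for high expression in the striatum, and Rasgrp2 also for its role in platelets.

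The counts in genes came to 22496880 to 28517579 per Tfap2a+/- library, 26216100 to 29214975 per library labelled Tfap2b+/- and 21946800 to 27051802 per wild-type library. Levels are given as CPM, each count divided by its library's total on a common scale, with totals adjusted by the trimmed mean of M-values (TMM). Across libraries, raw counts of the 9 genes ran from 203 (Rgs9 in wild type 1) to 17187 (Adcy5 in Tfap2a+/- 1), so counting error is small beside the differences between libraries. The targeted genes were checked against the labels. Tfap2a was near the limit of detection, at 0.376 ± 0.133 CPM in Tfap2a+/- and 0.536 ± 0.244 CPM in wild type (SD, n = 3 each), with overlapping groups. Tfap2b stood at 32.9, 8.90 and 5.81 CPM in libraries labelled Tfap2b+/-, against 2.25, 0.715 and 14.8 CPM in wild type. For Tfap2b too the groups overlapped, and the mean was higher, not lower, in the libraries that carry the Tfap2b+/- label. These counts cannot check the label of either heterozygote. The libraries of the Tfap2b+/- group are named below by their label. Libraries also differed in markers of other brain regions. In the library labelled Tfap2b+/- 1 the hindbrain markers summed to 74.6 CPM, against 0.517 to 3.69 CPM in the 8 others, with Hoxa2 at 0 in all 9. Wild type 2 had 2761 CPM of the choroid plexus gene Ttr, and Tfap2a+/- 1 had 767 CPM. Olfactory bulb markers summed to 144 CPM in the library labelled Tfap2b+/- 3, against 6.34 to 24.3 CPM in the 8 others. Thalamus markers summed to 163 to 263 CPM in Tfap2a+/-, to 747, 948 and 151 CPM in libraries labelled Tfap2b+/- 1, 2 and 3, and to 292 to 307 CPM in wild type. All 6 thalamus and all 6 hippocampus markers had the lower mean in Tfap2a+/- than in wild type, with median log2 folds of -0.98 and -1.54. The part of these markers in the results below was not tested. Reads that met no annotated exon on the counted strand made up 8.07% to 8.96% of fragments in Tfap2a+/-, 11.1% to 11.8% in libraries labelled Tfap2b+/- and 7.30% to 8.86% in wild type.

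The 3 promoter windows in which the AP-2 palindrome occurs are shown first, because AP-2 proteins bind that sequence and the mice carry the AP-2 genotypes. Windows reach from 250 bases before to 50 bases after a RefSeq transcript start (GRCm38.p6), on the strand of the gene, and 7 of the 9 genes had 12 such windows among those used. Capitals mark matches of GCCNNNGGC, which reads the same on both strands. The Rasd2 window holds a pair of overlapping matches in 1 capital run.
Pde10a, chr17:8801495-8801794, plus strand: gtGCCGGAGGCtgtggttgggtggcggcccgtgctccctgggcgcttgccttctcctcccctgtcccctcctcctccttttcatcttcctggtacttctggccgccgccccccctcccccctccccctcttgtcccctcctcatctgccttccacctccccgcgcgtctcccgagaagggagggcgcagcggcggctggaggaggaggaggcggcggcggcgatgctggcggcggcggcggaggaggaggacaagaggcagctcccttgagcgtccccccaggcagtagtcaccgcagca
Gng7, chr10:81014876-81015175, minus strand: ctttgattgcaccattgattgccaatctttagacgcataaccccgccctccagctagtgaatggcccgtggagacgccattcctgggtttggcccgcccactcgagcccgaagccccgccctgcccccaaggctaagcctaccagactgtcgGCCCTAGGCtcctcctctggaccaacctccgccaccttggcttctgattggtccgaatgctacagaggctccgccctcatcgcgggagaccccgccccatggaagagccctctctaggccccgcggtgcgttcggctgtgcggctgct
Rasd2, chr8:75213694-75213993, plus strand: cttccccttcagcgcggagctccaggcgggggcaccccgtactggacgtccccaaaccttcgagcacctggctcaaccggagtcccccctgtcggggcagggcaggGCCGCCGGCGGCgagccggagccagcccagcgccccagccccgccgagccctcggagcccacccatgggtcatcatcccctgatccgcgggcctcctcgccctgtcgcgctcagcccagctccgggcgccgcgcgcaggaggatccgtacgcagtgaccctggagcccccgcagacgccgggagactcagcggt
The match lay at -248 to -240 from the start in Pde10a and at -98 to -90 in Gng7. In Rasd2 the pair ran from -144 to -136 and from -141 to -133. The palindrome was present in 3 of the 12 windows, and in 16.6% of all windows. By gene, it was in at least 1 window of 3 of the 7 genes, and of 18.5% of the 27025 genes of the table. G and C made up 71.3% of the Pde10a window, 63.7% of the Gng7 window and 74.7% of the Rasd2 window, against a median of 52.7% over all 32851 windows. The cyclic AMP response element TGACGTCA, searched on both strands, was in none of the 12 windows and in 1.79% of all windows. Its core TGACG was in 1 of the 12, another start of Gng7, and in 20.8% of all windows. A match is a run of letters and does not show binding.

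In Tfap2a+/- against wild type, all 9 genes had the higher mean in Tfap2a+/-, with a median log2 fold of 1.23, while the median over all tested genes was -0.0064 and 48.2% of genes had a higher mean. The highest library was Tfap2a+/- 1 for 9 of 9 genes and the next was Tfap2a+/- 2 for 9 of 9. Tfap2a+/- 3 was below both in every gene. In bulk tissue, a difference in the number of cells of a type and one in RNA per cell cannot be told apart. No gene passed an adjusted p of 0.05 in edgeR, whether among the 9 or among all tested (0.00%). At an unadjusted p under 0.05 in edgeR, 8 of the 9 were higher, against 2.15% of all tested genes, and DESeq2 called 3 of the 9 (Pde10a, Rasd2 and Pde1b), against 0.173%. In 5 of the 9 genes (Gnal, Pde10a, Pde1b, Rasd2 and Rasgrp2) every Tfap2a+/- library lay above every wild-type library, against 4.85% of all tested genes.

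**Figure D1:**
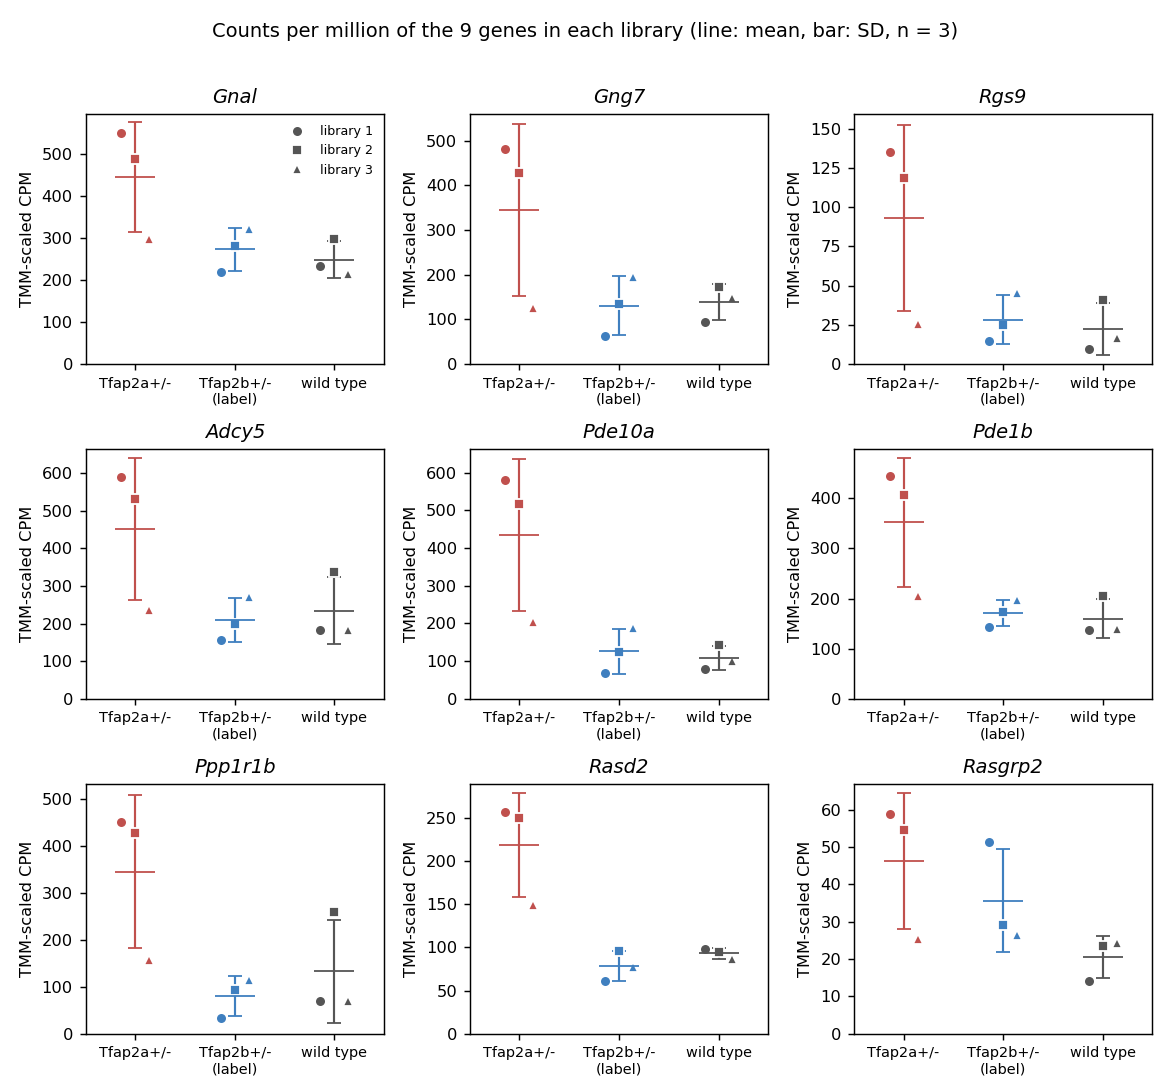
Level of each of the 9 genes in TMM-scaled CPM (vertical axes, each starting at 0) in the 3 libraries of each genotype (points), with the mean and SD of each group. For every gene the pair of highest points is Tfap2a+/- 1 and Tfap2a+/- 2, while Tfap2a+/- 3 is lower in every gene and, for Rasd2, still above the 6 libraries of the other genotypes.

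Of the G protein subunits, Gnal (ENSMUSG00000024524, chromosome 18, 67088216 to 67226792, plus strand, in GENCODE M21 on GRCm38, as for the genes below) encodes the alpha subunit. It stood at 550, 489 and 298 CPM in Tfap2a+/-, at 218, 280 and 321 CPM in libraries labelled Tfap2b+/- and at 234, 297 and 213 CPM in wild type. Tfap2a+/- did not overlap wild type, but its lowest library was only just above the highest wild-type one. The log2 fold was 0.84 ± 0.24 (SE, 95% interval 0.30 to 1.39, edgeR adjusted p = 0.999). Gng7 (chromosome 10, 80948624 to 81014945, minus strand) encodes the gamma subunit that pairs with Gnal. It measured 481, 428 and 124 CPM in Tfap2a+/-, 62.4, 135 and 195 CPM in libraries labelled Tfap2b+/- and 94.8, 173 and 147 CPM in wild type. The groups overlapped, because Tfap2a+/- 3 was below wild type 2 and wild type 3. Gng7 averaged 344 ± 192 CPM in Tfap2a+/- and 138 ± 40.0 CPM in wild type (SD, n = 3 each), a log2 fold of 1.32 ± 0.53 (edgeR adjusted p = 0.999).

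Rgs9 (chromosome 11, 109225355 to 109298129, minus strand), the GTPase-activating protein, was the gene with the widest spread. It stood at 135, 118 and 25.4 CPM in Tfap2a+/-, at 14.6, 24.6 and 45.6 CPM in libraries labelled Tfap2b+/- and at 9.53, 40.9 and 16.6 CPM in wild type. Its highest library exceeded its lowest by 14.2-fold. Tfap2a+/- 3 lay within the wild-type range, so the groups overlapped, and the log2 fold of 2.06 ± 0.72 had a 95% interval from 0.43 to 3.69 (edgeR adjusted p = 0.999).

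Adcy5 (chromosome 16, 35154877 to 35305738, plus strand), the cyclase, measured 588, 530 and 237 CPM in Tfap2a+/-, 157, 199 and 271 CPM in libraries labelled Tfap2b+/- and 182, 337 and 183 CPM in wild type. Wild type 2 was above Tfap2a+/- 3, so the groups overlapped. The log2 fold of Tfap2a+/- over wild type was 0.95 ± 0.38 (edgeR adjusted p = 0.999).

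Of the phosphodiesterases, Pde10a (chromosome 17, 8525372 to 8986648, plus strand), which hydrolyses both cyclic AMP and cyclic GMP, stood at 580, 517 and 204 CPM in Tfap2a+/-, at 68.9, 124 and 188 CPM in libraries labelled Tfap2b+/- and at 80.2, 142 and 100 CPM in wild type. All 3 Tfap2a+/- libraries were above the 6 others. The log2 fold over wild type was 2.01 ± 0.46 (95% interval 0.97 to 3.05, edgeR adjusted p = 0.952, DESeq2 adjusted p = 0.00286). Pde1b (chromosome 15, 103503034 to 103530052, plus strand), the calcium- and calmodulin-dependent enzyme, measured 445, 407 and 206 CPM in Tfap2a+/-, 144, 173 and 196 CPM in libraries labelled Tfap2b+/- and 137, 205 and 139 CPM in wild type. Here too the Tfap2a+/- libraries were above the rest, but Tfap2a+/- 3 and wild type 2 were nearly equal. Its log2 fold was 1.14 ± 0.28 (edgeR adjusted p = 0.999, DESeq2 adjusted p = 0.0488).

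Ppp1r1b (chromosome 11, 98348404 to 98357796, plus strand), the phosphatase inhibitor, stood at 452, 428 and 157 CPM in Tfap2a+/-, at 33.6, 93.5 and 115 CPM in libraries labelled Tfap2b+/- and at 69.6, 260 and 69.5 CPM in wild type. Wild type 2, the library high in Ttr, held over 3 times the level of the other wild-type libraries and was above Tfap2a+/- 3. It was the 1 gene of the 9 whose unadjusted edgeR p missed 0.05 in this comparison (log2 fold 1.38 ± 0.65, 95% interval -0.11 to 2.86). Without wild type 2 its log2 fold was 2.32.

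Rasd2 (chromosome 8, 75213944 to 75224113, plus strand), the small GTPase, had the smallest spread within wild type relative to its mean. It measured 257, 250 and 149 CPM in Tfap2a+/-, 61.6, 96.2 and 77.8 CPM in libraries labelled Tfap2b+/- and 98.5, 94.4 and 86.0 CPM in wild type. The 3 Tfap2a+/- libraries, Tfap2a+/- 3 included, were clearly above the 6 others. The log2 fold over wild type was 1.23 ± 0.22 (95% interval 0.73 to 1.74), with the smallest p of the 9 genes (edgeR adjusted p = 0.587, DESeq2 adjusted p = 0.000378). Rasgrp2 (chromosome 19, 6399340 to 6415216, plus strand), the exchange factor, measured 58.9, 54.5 and 25.3 CPM in Tfap2a+/-, 51.4, 29.2 and 26.4 CPM in libraries labelled Tfap2b+/- and 14.1, 23.6 and 24.2 CPM in wild type. Both heterozygote groups lay above wild type in every library, by a narrow margin in the lowest. The log2 fold of Tfap2a+/- over wild type was 1.16 ± 0.37 (edgeR adjusted p = 0.999). Platelet and blood markers together summed to 49.0 to 97.7 CPM in Tfap2a+/-, 52.4 to 79.9 CPM in libraries labelled Tfap2b+/- and 41.0 to 94.8 CPM in wild type. The haemoglobin gene Hbb-bs alone held 24.6 to 66.5 CPM over the 9 libraries. Itga2b, the most abundant of the listed platelet genes, had 1.15 to 3.24 CPM, so the sum does not measure platelets. The part of platelets or blood in the result was not tested.

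Per kilobase of annotated exon, the order of the mean levels in Tfap2a+/- was Ppp1r1b (118 ± 55.9 CPM per kb), Gng7 (91.0 ± 50.8), Rasd2 (68.8 ± 19.0), Pde1b (65.3 ± 23.8), Adcy5 (62.9 ± 26.2), Gnal (39.9 ± 11.8), Pde10a (33.8 ± 15.7), Rgs9 (14.6 ± 9.27) and Rasgrp2 (3.73 ± 1.47; SD, n = 3). Neighbours in that order differed by less than the larger of their SDs, except that Rgs9 was below Pde10a and Rasgrp2 below Rgs9 by more. Libraries labelled Tfap2b+/- had Gng7 first at 34.5 ± 17.5 CPM per kb, then Pde1b (31.7 ± 4.87), Adcy5 (29.1 ± 8.07), Ppp1r1b (27.6 ± 14.4), Rasd2 (24.7 ± 5.47) and Gnal (24.4 ± 4.62), each within the larger SD of its neighbour. Pde10a (9.86 ± 4.63), Rgs9 (4.42 ± 2.47) and Rasgrp2 (2.88 ± 1.11) came last there. In wild type, Ppp1r1b led at 45.4 ± 37.5 CPM per kb, followed by Gng7 (36.6 ± 10.6), Adcy5 (32.6 ± 12.4), Pde1b (29.7 ± 7.13) and Rasd2 (29.3 ± 2.00), each within the larger SD of its neighbour. Gnal (22.2 ± 3.91), Pde10a (8.37 ± 2.46) and Rgs9 (3.49 ± 2.57) were each below the gene before them by more than that. Rasgrp2 was last in wild type too, at 1.67 ± 0.456 CPM per kb. The exon length merges all annotated transcripts, which lowers this value for genes with many alternative exons.

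**Figure D2:**
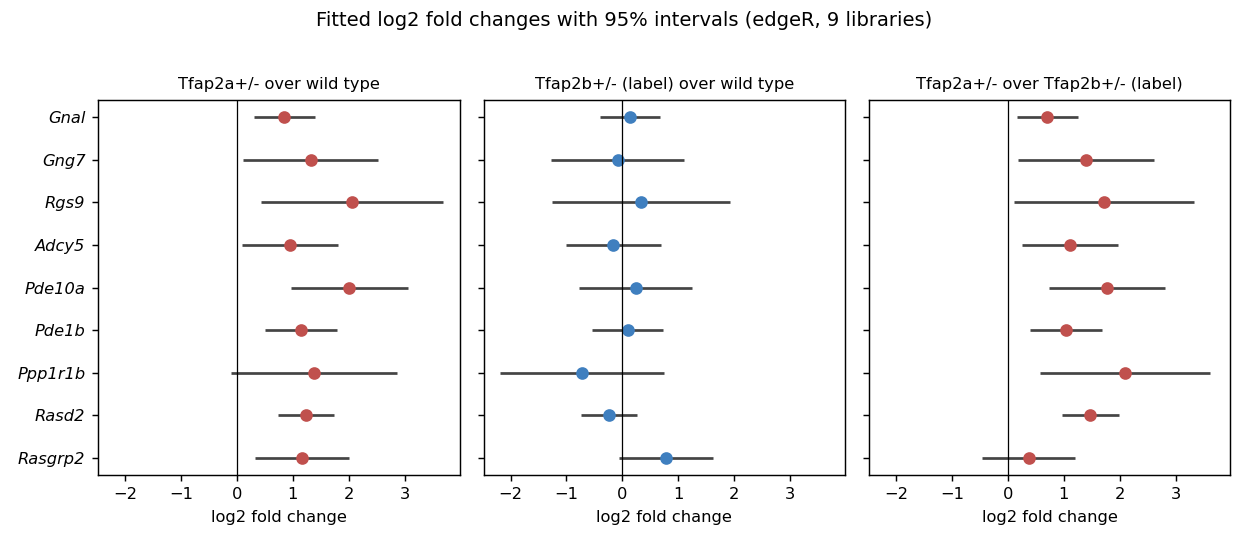
Fitted log2 fold change of each gene (horizontal axis) with its 95% interval from edgeR, for each of the 3 comparisons. The points of Tfap2a+/- over wild type run from 0.84 (Gnal) to 2.06 (Rgs9), and those of the libraries labelled Tfap2b+/- over wild type from -0.72 (Ppp1r1b) to 0.79 (Rasgrp2), with intervals that all reach 0.

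In the libraries labelled Tfap2b+/- against wild type, the 9 genes showed no common direction: 5 had the higher mean in the Tfap2b+/- label (49.7% of all genes did) and 4 the lower. The median log2 fold was 0.10, and -0.0012 over all tested genes. None was called by edgeR (0.00% of all genes) or DESeq2 (1.03%), and 0 of the 9 had an unadjusted edgeR p under 0.05, against 6.46% of all genes higher and 4.15% lower. The lowest fold was that of Ppp1r1b at -0.72 ± 0.65 (95% interval -2.19 to 0.75), and Rasd2 had -0.24 ± 0.22, Adcy5 -0.16 ± 0.37 and Gng7 -0.08 ± 0.53. Pde1b had 0.10 ± 0.28, Gnal 0.14 ± 0.24, Pde10a 0.24 ± 0.44 and Rgs9 0.33 ± 0.70. Rasgrp2 had the highest fold at 0.79 ± 0.37 (95% interval -0.05 to 1.62, edgeR adjusted p = 0.490) and was the 1 gene of the 9 without overlap, against 8.84% of all genes higher without overlap. Its highest library of this group was the one labelled Tfap2b+/- 1, in which 5 of the 8 other genes were at their lowest of all 9 libraries. Without that library, wild type 2 and Tfap2a+/- 1, which carry the hindbrain or choroid plexus markers, 7 of the 9 genes were higher without overlap in this comparison. With 2 libraries a group, 18.4% of all tested genes were too. The folds of Ppp1r1b (0.59), Gng7 (0.45) and Adcy5 (0.37) were positive. These libraries were left out after seeing the data. Wild type 2 had a median rank of 4 over the 9 genes (rank 1 is the highest library), against 8 and 7 in wild type 1 and 3. The library labelled Tfap2b+/- 1 had 9, against 6 and 4 in its group. Leaving both out therefore tends to part the groups in this direction. The library labelled Tfap2b+/- 3, high in olfactory bulb markers, was kept.

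Tfap2a+/- shares its libraries with both of the comparisons it enters, so the contrast of both heterozygotes is given as its own values. All 9 genes had the higher mean in Tfap2a+/- than in libraries labelled Tfap2b+/-, against 48.3% of all genes, and the median log2 fold was 1.40 (-0.0107 over all genes). No gene was called by edgeR (0.00%), 8 of the 9 had an unadjusted p under 0.05 (4.98% of all genes, higher), and DESeq2 called Rasd2, Pde10a and Pde1b (1.30%). Pde10a, Pde1b, Ppp1r1b and Rasd2 did not overlap, against 8.03% of all genes. Rasd2 had a log2 fold of 1.48 ± 0.22 (edgeR adjusted p = 0.201, DESeq2 adjusted p = 1.01e-06), and its adjusted p was 0.0363 with no filter on low counts. Ppp1r1b had 2.10 ± 0.67 and Pde10a 1.78 ± 0.46 (edgeR adjusted p = 0.373 and 0.330). Rasgrp2 had the smallest fold at 0.38 ± 0.37.

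Leaving out single libraries moved these counts. For Tfap2a+/- against wild type, the genes with an unadjusted edgeR p under 0.05 numbered 5 without Tfap2a+/- 1 (1.83% of all tested genes were higher at that p), without Tfap2a+/- 2 (1.64%), without wild type 1 (2.59%) or without wild type 3 (1.84%). The genes without overlap numbered 9 without Tfap2a+/- 3, against 10.0% of all genes, and 8 without wild type 2, against 9.31%. For Tfap2a+/- against the Tfap2b+/- label, those with p under 0.05 numbered 4 without Tfap2a+/- 1 (5.08% of all genes), without Tfap2a+/- 2 (2.52%) or without the library labelled Tfap2b+/- 1 (2.61%). Here 9 genes did not overlap without Tfap2a+/- 3, against 13.3% of all genes, and 7 without the library labelled Tfap2b+/- 3, against 18.4%.

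The 9 genes had positively correlated profiles over the 9 libraries, with Rasgrp2 the weakest. Outside Tfap2a+/- 1 and Tfap2a+/- 2, Rasgrp2 departed from the rest and Rasd2 followed them less closely. The median log2 deviation of the 9 genes, each from its own mean, was 1.16, 1.12 and -0.0375 in Tfap2a+/- 1, 2 and 3, and -0.902, -0.308 and 0.0204 in libraries labelled Tfap2b+/- 1, 2 and 3. In wild type 1, 2 and 3 it was -0.817, -0.0202 and -0.549. Over the 28 pairs of genes other than Rasgrp2, Pearson's r between log2 CPM profiles was 0.775 to 0.988 over 9 libraries and 0.104 to 0.943 (median 0.777) over the 7 libraries other than Tfap2a+/- 1 and Tfap2a+/- 2. The lowest of the 28 over the 7 libraries were the pairs with Rasd2, from 0.104 with Rgs9 to 0.617 with Ppp1r1b. The 8 pairs with Rasgrp2 had r of 0.371 to 0.681 over 9 libraries and -0.528 to 0.164 over the 7, with 6 of the 8 negative. All genes of a library share its tissue and its scaling, so these values are descriptions and no p is given.

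**Figure D3:**
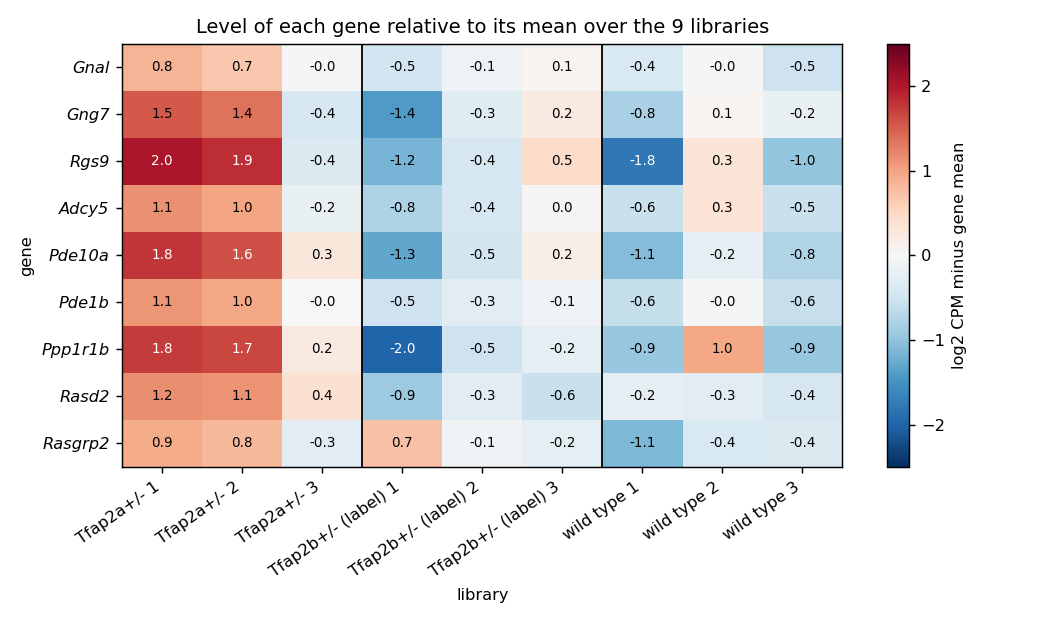
Log2 CPM of each gene (rows) in each library (columns, grouped by genotype) relative to that gene's own average across the 9 libraries, printed in each cell and coloured from blue (below the mean) to red (above). The columns of Tfap2a+/- 1 and Tfap2a+/- 2 are red throughout, and Rasgrp2 is the 1 gene above its mean in the library labelled Tfap2b+/- 1.

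Relative to the geometric mean of the 9 genes in the same library, Adcy5 and Pde1b kept the steadiest share, with a range over libraries of 1.44-fold and 1.52-fold. Pde10a varied 1.79-fold, Gng7 1.94-fold, Gnal 2.00-fold and Rasd2 2.23-fold on that relative scale. The widest were Rgs9 at 3.09-fold (lowest in wild type 1, highest in Tfap2a+/- 1), Ppp1r1b at 4.02-fold (lowest in the library labelled Tfap2b+/- 1, highest in wild type 2) and Rasgrp2 at 4.19-fold (lowest in wild type 2, highest in the library labelled Tfap2b+/- 1).

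The striatal marker list holds 15 genes, none of them among the 9, chosen as markers of medium spiny neurons, receptors and neuropeptides included. Whether each is confined to those neurons was not tested. All 15 had the higher mean in Tfap2a+/- than in wild type, with a median log2 fold of 1.66. None was called by edgeR (0.00% of all tested genes). An unadjusted edgeR p under 0.05 was found for 9 of the 15, all higher, against 2.15% of all genes, and DESeq2 called 3, against 0.173%. Scn4b, a sodium channel beta subunit, had a log2 fold of 1.66 ± 0.23. Its wild-type levels were 134, 89.0 and 103 CPM in libraries 1, 2 and 3, lowest where the marker score given below was highest. Syndig1l averaged 59.0 ± 33.8 CPM in Tfap2a+/- and 12.4 ± 6.92 CPM in wild type (SD, n = 3 each). In the libraries labelled Tfap2b+/- against wild type, 9 of the 15 markers had the higher mean and 6 the lower, with a median of 0.21. The marker score, the mean log2 deviation of the 15 genes, was 1.70, 1.48 and -0.0106 in Tfap2a+/-, -1.10, -0.418 and 0.146 in libraries labelled Tfap2b+/- and -1.27, 0.193 and -0.712 in wild type. Summed, the markers came to 945 to 2304 CPM in Tfap2a+/-, 516 to 1051 CPM in libraries labelled Tfap2b+/- and 585 to 956 CPM in wild type. The 1051 CPM belong to the library labelled Tfap2b+/- 3, high in olfactory bulb markers. Of these, 299 CPM were Meis2, against 237 and 234 CPM of Meis2 in Tfap2a+/- 1 and 2. The part of olfactory bulb tissue in the marker sum and score was not tested. Sums for the 9 genes were 1426 to 3547, 811 to 1436 and 920 to 1573 CPM in the same groups. Cholinergic markers, which striatal interneurons share with the basal forebrain and brainstem, also summed to 5.48 to 52.9 CPM in Tfap2a+/-, 8.73 to 21.5 CPM in libraries labelled Tfap2b+/- and 1.83 to 11.5 CPM in wild type, and their part in the result was not tested.

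Of the 9 genes, 7 followed the striatal marker score closely. Over 9 libraries and over the 7 other than Tfap2a+/- 1 and Tfap2a+/- 2, r was 0.99 and 0.96 for Rgs9, 0.98 and 0.95 for Pde1b, 0.98 and 0.92 for Pde10a, and 0.97 and 0.90 for Adcy5. It was 0.97 and 0.88 for Gnal, 0.94 and 0.85 for Ppp1r1b, and 0.95 and 0.81 for Gng7. Rasd2 had 0.85 and 0.37, and Rasgrp2 0.63 and 0.0099. The slope in log2 CPM per unit of score ran from 0.41 (Rasgrp2) and 0.45 (Gnal) to 1.14 (Ppp1r1b) and 1.24 (Rgs9).

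**Figure D4:**
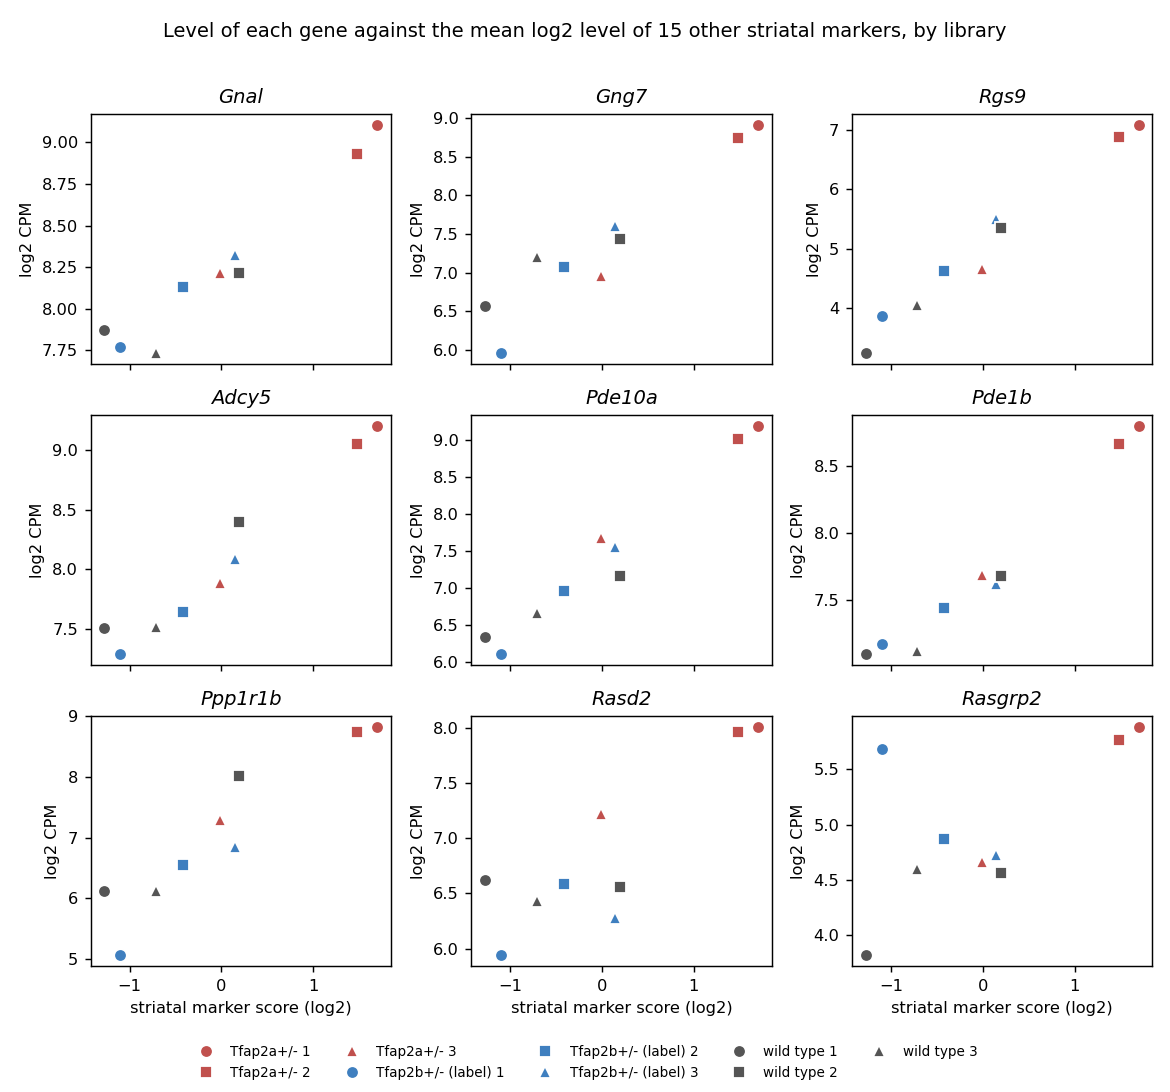
Log2 CPM of each gene (vertical axes) against the striatal marker score (horizontal axes, log2), 1 point per library, coloured by genotype and shaped by replicate. Rgs9, Pde1b and Pde10a lie near a line, while Rasd2 is high in all 3 Tfap2a+/- libraries and Rasgrp2 is high in the library labelled Tfap2b+/- 1, which has a low score.

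With the score as a term in the edgeR model, the median log2 fold of the 9 genes was 0.12 for Tfap2a+/- over wild type, against 1.23 without it. For the Tfap2b+/- label over wild type it was 0.0368, and for Tfap2a+/- over the Tfap2b+/- label 0.0495. Rasd2 kept a log2 fold of 0.73 ± 0.27 over wild type and of 1.03 ± 0.25 over the Tfap2b+/- label. Pde10a had 0.50 ± 0.20 over wild type. Rgs9 had -0.33 ± 0.12 over wild type, and the other folds of that comparison ran from -0.58 ± 0.31 (Gng7) to 0.68 ± 0.57 (Rasgrp2). Rasd2, Pde10a and Rgs9 were the 3 of the 9 genes with an unadjusted edgeR p under 0.05 over wild type in that fit, against 8.64% of all genes. In the Tfap2b+/- label over wild type they numbered 2 (12.2% of all genes) and in Tfap2a+/- over the Tfap2b+/- label 3 (8.31%), and none was called in any comparison. The score differs between the groups and was measured in the same libraries, so genotype and score cannot be fully told apart with 3 libraries a group.

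For the rest of the pathway, higher and lower means were near even. Outside the 9 genes and the receptors, 101 of 102 listed genes of G protein subunits, cyclases, phosphodiesterases, RGS proteins, protein kinase A with its phosphatases, and small GTPases were tested in Tfap2a+/- against wild type. Of these, 55 had the higher and 46 the lower mean. Their median log2 fold was 0.0182, and 6 had an unadjusted edgeR p under 0.05, all higher, against 2.15% of all tested genes. No gene was called by edgeR (0.00% of all genes) and 1 by DESeq2, Pde7b (0.173%). Of the receptors, 11 of 15 tested (16 listed) had the higher mean, with a median of 0.71. An unadjusted edgeR p under 0.05 was found for 5 receptors, all higher, against the same 2.15%, and 4 of the 5 are also striatal markers.

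Among receptors, Drd2 averaged 50.3 ± 31.2 CPM in Tfap2a+/- and 8.93 ± 7.89 CPM in wild type (SD, n = 3 each), and its lowest Tfap2a+/- library, at 14.8 CPM, was below its highest wild-type one, at 17.4 CPM. Gpr6, an orphan receptor, had a log2 fold of 2.33 ± 0.66. Of the 23 tested G protein subunits and chaperones, 7 had the higher and 16 the lower mean in Tfap2a+/- (median -0.05). Ric8b, a chaperone of Gnal and of the stimulatory alpha subunit, had a log2 fold of 0.41 ± 0.15, and Ric8a, the chaperone of other alpha subunits, -0.18 ± 0.09. Of the 8 other cyclases, 3 had the higher and 5 the lower mean (median -0.10), and Adcy2 had 0.28 ± 0.21.

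Of the 16 other phosphodiesterases, 11 had the higher and 5 the lower mean. Pde7b, which hydrolyses cyclic AMP, stood at 133, 123 and 90.9 CPM in Tfap2a+/-, at 37.8, 72.5 and 48.2 CPM in libraries labelled Tfap2b+/- and at 50.3, 62.2 and 51.2 CPM in wild type. As with Rasd2, all 3 Tfap2a+/- libraries were above the 6 others (log2 fold over wild type 1.08 ± 0.23, edgeR adjusted p = 0.930, DESeq2 adjusted p = 0.0117). Pde1a, the paralog of Pde1b, averaged 236 ± 27.8 CPM in Tfap2a+/- and 323 ± 45.9 CPM in wild type, opposite in direction to Pde1b. Rgs20 had a log2 fold of 0.59 ± 0.17 among 16 RGS proteins and their partners, of which 11 had the higher mean. In the protein kinase A and phosphatase list, 16 of 20 had the higher mean, and Arpp21, a phosphoprotein of medium spiny neurons, averaged 574 ± 81.1 CPM in Tfap2a+/- and 325 ± 32.8 CPM in wild type. The regulatory subunit Prkar2b averaged 93.9 ± 18.3 CPM in Tfap2a+/- and 64.2 ± 6.28 CPM in wild type. Of 18 small GTPase genes, 7 had the higher mean, and Rasd1, the paralog of Rasd2, averaged 5.66 ± 4.04 CPM in Tfap2a+/- and 12.6 ± 6.78 CPM in wild type.

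In the libraries labelled Tfap2b+/- against wild type, 42 of the 116 tested genes of all 7 lists had the higher and 74 the lower mean (median -0.11). Over all tested genes, 49.7% had the higher mean. Unadjusted edgeR p-values under 0.05 numbered 2 higher and 8 lower, against 6.46% higher and 4.15% lower over all tested genes. None was called by edgeR (0.00% of all genes) or DESeq2 (1.03%). Lower means were most frequent among G protein subunits (18 of 23) and the protein kinase A list (16 of 20). Summed, the protein kinase A list came to 5221 to 7350 CPM in this label, against 7614 to 7939 CPM in wild type. The G protein subunits came to 4204 to 4683 CPM in this label, against 4700 to 4942 CPM in wild type. Both sums were lowest in the library labelled Tfap2b+/- 1. Cortex markers in that library summed to 667 CPM, against 1327 to 2370 CPM in the other libraries. The part of that library in these results was not tested. Gnaz averaged 78.9 ± 11.2 CPM in the Tfap2b+/- label and 98.4 ± 5.77 CPM in wild type, and Adcy9 had a log2 fold of -0.39. Adcy7 was higher, at 17.4 ± 8.28 CPM in the Tfap2b+/- label and 8.82 ± 1.53 CPM in wild type.

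**Figure D5:**
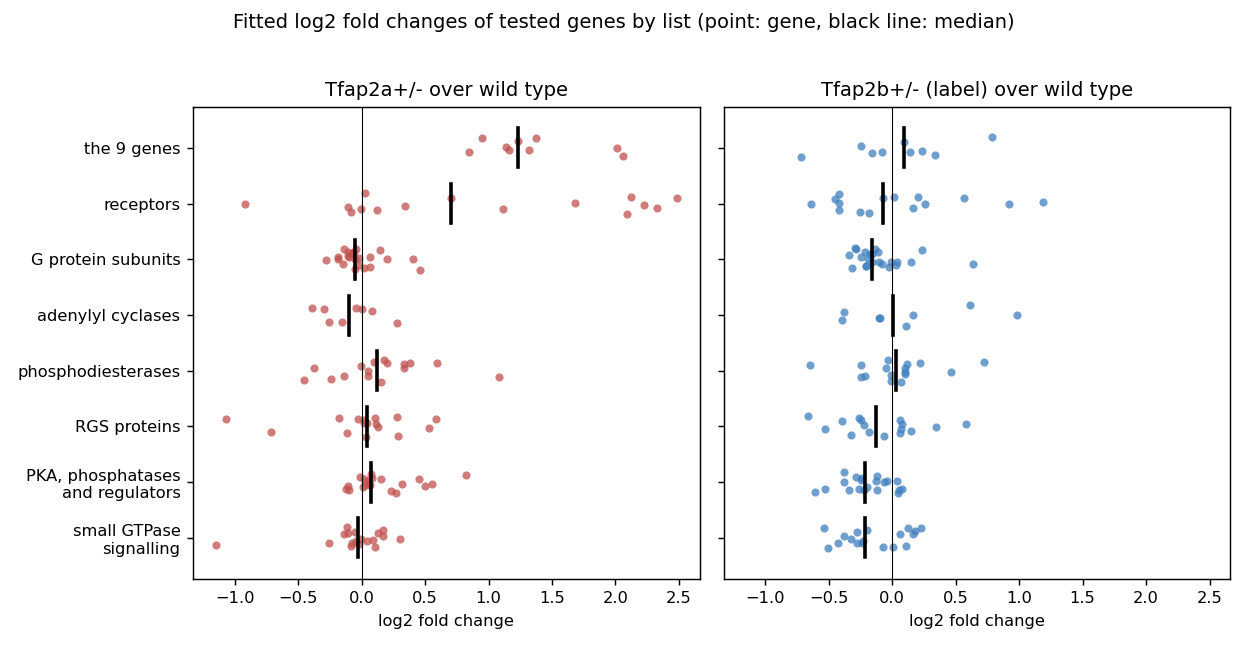
Fitted log2 fold change (horizontal axes) of every tested gene of the 9 and of the 7 pathway lists (points), with the median of each list as a black line, for Tfap2a+/- over wild type (left) and the Tfap2b+/- label over wild type (right). On the left, the 9 genes (median 1.23) all lie to the right of 0. So does the median of the receptors (0.71), although 4 of the 15 tested lie to the left, down to -0.91. The medians of the 6 other lists lie between -0.10 and 0.12.

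Across all tested genes, those whose log2 CPM profile over the 9 libraries was most like the mean profile of the 9 genes were Strn (r = 0.99, and 0.91 over the 7 libraries other than Tfap2a+/- 1 and 2), Gpr6 (0.98 and 0.93), Itga5 (0.97 and 0.89), Rarb (0.96 and 0.81) and Krt10 (0.96 and 0.90). Taken singly, Pde10a was most like Krt10 (r = 0.97), Ppp1r1b like Arhgdib (0.99), Rgs9 like Gpr6 (0.98), Adcy5 like Tomm70a (0.99) and Gnal like Tbc1d8 (0.97). Gng7 was most like Drd1 (0.97), Pde1b like Strn (0.97) and Rasd2 like Pde7b (0.97, and 0.92 over the 7 libraries). Rasgrp2 was most like Asic4, an acid-sensing ion channel family member, with r = 0.96 over 9 libraries and 0.95 over the 7. These r are the highest of 17355 genes over 9 libraries and are descriptions only.

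Overlapping genes on the other strand were checked by their reads. Antisense reads were 1.45% to 3.88% of the stranded counts of Gnal, whose exons overlap those of Mppe1 on the other strand over 852 bases, and at most 1.95% for the 8 others. Exons of Ppp1r1b overlap those of 1700003D09Rik on the other strand over 460 bases, and that gene had 0.0706 to 1.02 CPM.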

How the data were processed

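Per the labels' protocols, polyadenylated RNA was prepared with a dUTP kit that keeps the strand. For each library the authors deposited whole-number counts per gene, unstranded and by strand. Tools listed in the submitters' processing notes are STAR 2.6.1d, cutadapt 2.4 and edgeR, with the build GRCm38.p6. No annotation release is named in what was read. Reverse-strand counts were used, and 54409 of the 54446 identifiers matched GENCODE M21. Every pair of replicates differed beyond sampling noise (chi-square per degree of freedom at least 18.7).

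Genes were filtered with filterByExpr and tested with edgeR 4.0.16 (R 4.3.3) by the quasi-likelihood F-test, with TMM, genotype as the only term, all 9 libraries and Benjamini-Hochberg adjustment over 17355 genes (threshold 0.05). Log2 CPM used a prior count of 2. A count of 0 allows up to 0.101 to 0.141 CPM (3 counts), and such floors cover counting error only. An exact permutation test of 3 against 3 libraries cannot go below p = 0.1, so none is given. Promoters come from RefSeq. The edgeR fit was run on simulated counts for both comparisons with wild type, and the other steps were not tested in this way.

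The 9 genes, the gene lists and the naming rule were chosen with earlier results of these data known. The rule names the 9 genes, up to 3 genes of smallest p per pathway list for Tfap2a+/- and 2 for the Tfap2b+/- label, 4 striatal markers, the most abundant marker of other lists and the genes of most similar profile. Examples of these are printed. Hoxa2, Itga2b, Mppe1 and 1700003D09Rik were named after their values were seen. Alternatives were DESeq2 1.42.0, its size factors, other filters, unstranded counts, a replicate block, only the 6 libraries compared, a robust fit, the striatal score as covariate, each library left out and, added after seeing the data, 3 libraries left out together.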

Additional observations from a re-analysis of the deposited data

How the results depend on the processing

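DESeq2's size factors in edgeR changed no count of calls. For Tfap2a+/- against wild type edgeR called 0 genes, DESeq2 30, and edgeR with no filter on low counts 2, with 0 to 3 when each library was left out (3 without Tfap2a+/- 2). For the Tfap2b+/- label against wild type edgeR called 0, DESeq2 175, and edgeR 2 without the 3 libraries of high choroid plexus or hindbrain markers, a choice made after seeing the data, with 0 to 4 when each library was left out (4 without the library labelled Tfap2b+/- 3). For Tfap2a+/- against the Tfap2b+/- label edgeR called 0, DESeq2 221, edgeR with no filter 7 and without those 3 libraries 1, with 0 to 31 when each library was left out (31 without the library labelled Tfap2b+/- 3). The median log2 fold of the 9 genes was 0.12 with the striatal score as covariate for Tfap2a+/- over wild type (1.23 without it), and for Tfap2a+/- over the Tfap2b+/- label 0.0495 with the score and 0.74 without the 3 libraries (1.40 otherwise). With each library left out, the median of 9 genes ran from -0.19 to 0.30 for the Tfap2b+/- label over wild type, which turned negative without wild type 1 (-0.0247) and without the library labelled Tfap2b+/- 3. The cause was not tested. Single genes changed sign in Tfap2a+/- over wild type with the score as covariate: Adcy5 to -0.26, Gng7 to -0.58, Ppp1r1b to -0.43 and Rgs9 to -0.33. In Tfap2a+/- over the Tfap2b+/- label they were Adcy5 at -0.0165, Gng7 at -0.23, Rasgrp2 at -0.14 and Rgs9 at -0.58. In Adcy5, Gng7 and Ppp1r1b, wild type 2 was the highest wild-type library and Tfap2b+/- 1 the lowest of its label. Without the 3 libraries, Adcy5 at 0.37, Gng7 at 0.45 and Ppp1r1b at 0.59 changed sign in the Tfap2b+/- label over wild type. When each library was left out of that comparison, Adcy5 ran from -0.40 to 0.20, Gng7 from -0.49 to 0.26, Pde10a from -0.16 to 0.54, Pde1b from -0.0163 to 0.32, Ppp1r1b from -1.07 to 0.22 and Rgs9 from -0.19 to 1.11. No gene of the 9 changed sign in the other comparisons when a library was left out. The correlation of same-numbered deviations was -0.352 to 0.337 and passed 0.1 in 3 of 9 pairs, while that of differently numbered ones was -0.39 to 0.37. These values show no pairing by replicate number, but with 3 libraries a group they cannot exclude one. With the replicate block, edgeR called 0 genes in each comparison and the medians were 1.21, 0.13 and 1.45, and 8, 0 and 6 of the 9 genes were higher at an unadjusted p under 0.05, against 1.86%, 5.76% and 4.70% of all genes. Depth does not limit the 9 genes, but Tfap2a is near the floor.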
